A study of Mus musculus with 18 samples.

Results

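Ovaries of mice homozygous for a deletion of the ARE (ARE-/-) were compared with wild-type (WT) ovaries across all genes. The comparison used 6 of the 18 libraries of the series, 3 per genotype, chosen by the tissue and genotype in their labels and not by any measured value. All animals were C57B6/J mice of 20 to 25 weeks. The WT libraries carry replicate numbers 1, 2 and 3, and the ARE-/- libraries 2, 3 and 6, the last of which is marked as a backup. In addition, 3 heterozygous (ARE+/-) ovaries, numbered 1, 2 and 4, entered the estimate of the spread, and 9 uterus libraries of the same genotypes served for a comparison between tissues. The series concerns failed implantation, luteinization and CD8 T cells. Its design text speaks of 3 mice and 3 genotypes, and libraries were taken as separate animals; where they are not, p-values measure technical spread alone. The stage of the estrous cycle, by which an ovary's follicles and corpora lutea change, is not stated in the labels or the design text.

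The labels name the deleted element without defining it. As background, the ARE is an AU-rich stretch near the 3' end of the Ifng transcript that binds proteins that shorten the life of the interferon gamma transcript. Interferon gamma, made mainly by T cells and natural killer cells, signals through JAK kinases and raises IRF1, guanylate-binding proteins, chemokines and the machinery of antigen presentation in most cell types. The ovary holds oocytes, granulosa and theca cells and, after ovulation, corpora lutea that make progesterone from cholesterol under pituitary control.

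Ovary libraries held 38132822 to 46647171 counts, with each mate of a read pair counted by itself. Levels are CPM, that is counts scaled to library size after TMM normalization. Differences are log2 fold changes of ARE-/- minus WT ± their standard errors, and a gene was called when its Benjamini-Hochberg adjusted p in the edgeR quasi-likelihood test was under 0.05. Ovarian markers were present in all 6 libraries. The granulosa gene Inha lay at 1030 to 1629 CPM in WT and 545 to 1252 in ARE-/- ovaries, against a mean of 6.89 in WT uterus. The oocyte gene Zp3 lay at 18.9 to 21.4 and 14.7 to 38.6 CPM. Fshr, the receptor of granulosa cells for follicle-stimulating hormone, was lowest in ARE-/- 3, at 14, 2.59 and 12.2 CPM in the ARE-/- libraries. Uterine Hoxa10 lay at 2.99 to 6.14 CPM in WT ovaries and at 8.88, 22.1 and 5.28 in ARE-/- ovaries, against a mean of 237 in WT uterus.

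Of 24457 genes tested, 1544 were higher in ARE-/- ovaries (6.31%) and 1014 were lower (4.15%). Below 1.5-fold there were more falls (606) than rises (365), and above 4-fold 35 falls against 418 rises. A change of at least 2-fold was found for 843 of the rises and 148 of the falls. Falls under 1.5-fold were 59.8% of all falls, and the 866 under 2-fold were 85.4%, with a median log2 fold change of -0.52 against 1.12 for the rises. The genes that fell were also the more abundant, with a median level of 51.2 CPM against 21.4 CPM for the rises and 10.6 CPM for all genes tested. Every called gene had ARE-/- and WT libraries that did not overlap, which also held, upward, for 16.1% and, downward, for 14.5% of all genes tested. The mean of the ARE+/- ovaries lay between the other means for 95.8% of the rises and 93.4% of the falls, though these libraries also entered the fit. Called genes were selected for a gap between WT and ARE-/- libraries, and such a gap by itself favors a mean in between. The share over all genes tested was not computed. The shares among called genes therefore do not show that the change grows with the number of deleted copies. All log2 fold changes are relative to a median over all genes of 0.02.

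**Figure D1:**
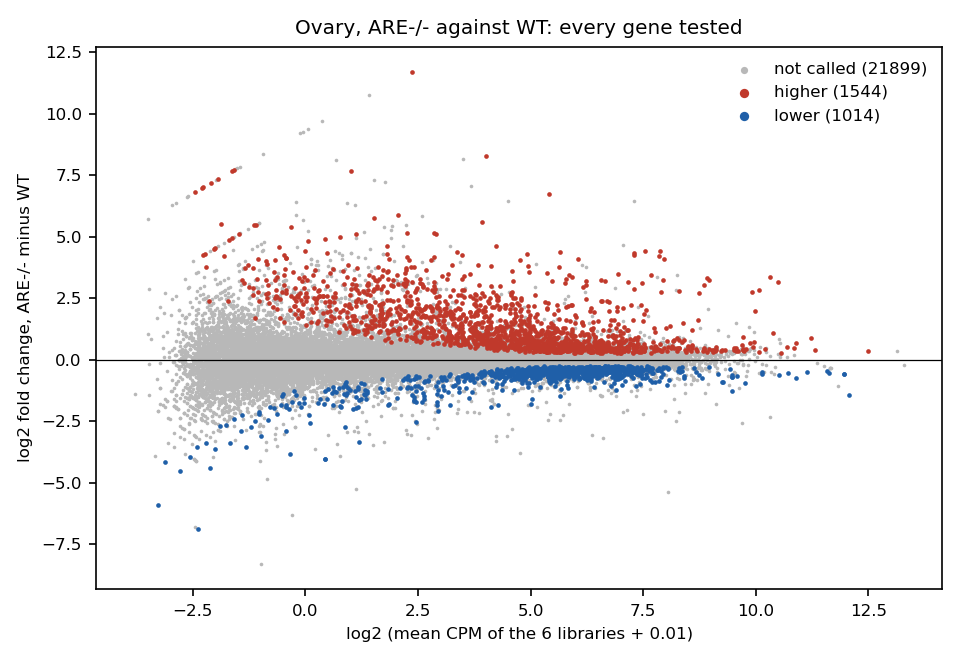
Log2 fold change of ARE-/- minus WT ovary (vertical) against the log2 of the mean CPM plus 0.01 over the 6 libraries (horizontal) for each gene tested. The 1544 rises in red reach far above the axis, while most of the 1014 falls in blue lie close below it and toward the abundant genes.

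The number of calls depended on single libraries. Below, a call lost without several libraries was lost with each of them left out in turn. Rises numbered 518 without WT 1, 886 without WT 2, 714 without WT 3, 835 without ARE-/- 2 and 948 without ARE-/- 3. Falls numbered 267 without WT 1, 594 without WT 2, 505 without WT 3 and 502 without ARE-/- 2. Without ARE-/- 6 there were 2031 rises and 1231 falls. Total-count scaling gave 1367 rises and 1258 falls, so that 47.9% of calls were falls against 39.6% with TMM, and all 1544 rises and 1014 falls kept their sign in each scaling and with each library left out.

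Ifng itself (chromosome 10, 118276951 to 118281797 in the deposited annotation) rose from a level near the limit of detection. It read 0.102, 0 and 0.1 CPM in WT, 0.47, 0.213 and 0.719 in ARE+/- and 1.28, 0.966 and 1.24 in ARE-/- ovaries. Each ARE-/- library lay above each WT library, with a log2 fold change of 4.04 ± 0.80 (adjusted p = 0.0129). The call was lost without WT 1 (adjusted p = 0.0507). A count of 3, taken as the floor, corresponds to 0.0735 to 0.0772 CPM in these 6 libraries, so the WT values rest on few reads.

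Before the values of its targets, windows upstream of 5 genes that rose are printed because they hold letters of the known interferon-response motifs; not all rising genes do. Each is 300 bases from RefSeq (GRCm38.p6), from 250 before to 50 after the start, and runs 5′ to 3′ on the gene's strand. Capitals mark TTCNNNGAA, the gamma-activated site, or GAAANNGAA, a core of the interferon-stimulated response element, on either strand. The genes are a transcription factor, a chemokine, a guanylate-binding protein, the light chain of MHC class I and a serpin, all of which rose.
Irf1, chr11:53769764-53770063, plus strand: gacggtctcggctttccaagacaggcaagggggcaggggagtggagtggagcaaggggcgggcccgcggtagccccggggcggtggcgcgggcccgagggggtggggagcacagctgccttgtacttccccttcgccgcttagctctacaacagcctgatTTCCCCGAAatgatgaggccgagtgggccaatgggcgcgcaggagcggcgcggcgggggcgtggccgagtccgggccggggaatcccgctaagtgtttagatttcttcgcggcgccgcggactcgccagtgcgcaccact
Cxcl9, chr5:92328030-92328329, minus strand: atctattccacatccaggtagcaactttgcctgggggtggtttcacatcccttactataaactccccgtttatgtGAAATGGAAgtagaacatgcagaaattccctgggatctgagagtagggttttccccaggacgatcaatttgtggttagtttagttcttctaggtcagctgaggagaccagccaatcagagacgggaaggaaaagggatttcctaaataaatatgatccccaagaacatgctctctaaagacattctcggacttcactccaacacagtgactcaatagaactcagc
Gbp2, chr3:142620413-142620712, plus strand: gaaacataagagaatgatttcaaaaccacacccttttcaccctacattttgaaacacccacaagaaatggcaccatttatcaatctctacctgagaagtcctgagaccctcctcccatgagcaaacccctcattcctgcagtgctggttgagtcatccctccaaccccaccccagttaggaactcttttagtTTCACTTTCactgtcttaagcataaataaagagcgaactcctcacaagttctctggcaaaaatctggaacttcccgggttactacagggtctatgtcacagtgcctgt
B2m, chr2:122147437-122147736, plus strand: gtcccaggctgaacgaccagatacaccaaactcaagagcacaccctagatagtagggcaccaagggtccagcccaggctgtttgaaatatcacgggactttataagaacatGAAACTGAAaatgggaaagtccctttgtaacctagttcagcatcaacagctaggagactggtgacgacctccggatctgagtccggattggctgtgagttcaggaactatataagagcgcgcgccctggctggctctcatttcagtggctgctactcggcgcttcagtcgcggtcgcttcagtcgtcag
Serpina3f, chr12:104214294-104214593, plus strand: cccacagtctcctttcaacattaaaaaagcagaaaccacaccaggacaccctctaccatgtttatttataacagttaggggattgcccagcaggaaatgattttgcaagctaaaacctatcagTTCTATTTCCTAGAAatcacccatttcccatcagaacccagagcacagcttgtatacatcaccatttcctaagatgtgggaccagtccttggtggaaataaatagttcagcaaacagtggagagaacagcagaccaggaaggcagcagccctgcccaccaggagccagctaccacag
The window of Irf1 holds a gamma-activated site at position -90 from the start. Response element cores begin at -175 in Cxcl9, -58 in Gbp2 (reverse strand) and -139 in B2m. In Serpina3f a core at -127 (reverse strand) overlaps a gamma-activated site at -121, so the capitals form a single run. Irf1 and Serpina3f have further windows from other starts, and the second window of Irf1 holds neither motif. The windows of Tap1, Psmb9 and Ubd, which also rose, hold neither motif and are not printed.

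Over all genes tested, 7.1% of 18036 such windows held the gamma-activated site and 7.5% the response element core. For the genes that rose the shares were 9.2% and 14.6% of 1310 windows, and for the genes that fell 6.2% and 5.5% of 877. Among windows of the interferon gamma response list the shares were 44.8% and 55.2% of 29 windows from 23 of its 34 tested genes. Windows of the falling genes were richer in CpG, with a median of 24 per window against 8.5 for the rises and 17 for all tested. Several windows can belong to 1 gene, and a match describes letters and does not show that a factor binds there. The window of Smc5, the fall of smallest adjusted p and a subunit of a DNA repair complex, holds neither motif:
Smc5, chr19:23272550-23272849, minus strand: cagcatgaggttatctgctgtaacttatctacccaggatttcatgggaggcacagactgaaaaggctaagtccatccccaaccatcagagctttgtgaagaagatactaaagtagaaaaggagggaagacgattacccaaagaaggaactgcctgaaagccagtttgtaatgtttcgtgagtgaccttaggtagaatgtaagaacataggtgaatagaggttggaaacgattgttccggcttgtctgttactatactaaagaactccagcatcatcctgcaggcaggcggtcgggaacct

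The interferon gamma response list rose almost entire in the ARE-/- ovary. Of 34 tested genes on that list 33 rose, none fell, and the median log2 fold change was 2.99, against 0.02 over all genes. Irf1, a transcription factor induced by interferon gamma, went from 38.1, 48.7 and 43.6 to 182, 178 and 155 CPM (1.98 ± 0.13, adjusted p = 2.1e-05). Cxcl9, whose product attracts CXCR3-bearing T cells, read 0.767, 1.07 and 0.552 CPM in WT and 59.7, 101 and 92.3 in ARE-/-, with no library between the groups. Its log2 fold change was 6.72 ± 0.36 (adjusted p = 1.77e-05).

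The GTPases that interferon gamma induces against intracellular pathogens moved together. Gbp2, whose promoter window is printed above, rose from 37.3, 41 and 35.9 to 271, 308 and 247 CPM (2.85 ± 0.15, adjusted p = 4.2e-06), and Iigp1 from 15.5, 22.1 and 13.2 to 328, 414 and 325 (4.39 ± 0.28, adjusted p = 6.08e-05). Tgtp1 rose by 4.23 ± 0.18 and Irgm1 by 2.35 ± 0.11 on the log2 scale. Near-identical copies in these families share reads under the authors' counting, so single members are uncertain. Ubd, a ubiquitin-like modifier, had no count in any WT ovary and 9.84, 16.2 and 5.06 CPM in ARE-/- ovaries, at least 406-fold higher if the WT group as a whole is set at 3 counts. Serpina3f rose from 0.537, 0.484 and 0.828 to 23.1, 38.8 and 27.7 CPM (5.59 ± 0.38).

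Ubd and Serpina3f were among the 10 largest rises with mean CPM of 1 or more, as were Cxcl9, Gbp2b and the class II chain H2-Eb2. Gbp2b read 0, 0.0509 and 0.251 CPM in WT, 11.3, 3.54 and 12.1 in ARE+/- and 38.8, 35.4 and 22.5 in ARE-/- ovaries, so that it was nearly silent in WT. The remaining largest rises were 3 antibody segments, the locus 2010309G21Rik and Cyp1a1, a target of the aryl hydrocarbon receptor. Cyp1a1 had 2 counts over the WT libraries and 474 over the ARE-/- libraries, a ratio of 234 (95% exact binomial interval 64.5 to 1940). The interval leaves out the spread between animals. It also treats the mates of a read pair as separate counts, so it is too narrow even for counting error. The size of this ratio rested mostly on 1 library, with 0.652, 10.5 and 0.893 CPM in the ARE-/- libraries, all above WT. The call of Cyp1a1 was lost without WT 1, WT 2, WT 3, ARE+/- 1 and ARE-/- 3 (adjusted p = 0.0678 to 0.168). That of 2010309G21Rik was lost without WT 1, WT 2, WT 3, ARE+/- 1, ARE+/- 2, ARE-/- 2 and ARE-/- 3 (adjusted p = 0.0554 to 0.154).

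Antigen presentation rose as a block. All 19 tested genes of MHC class I and peptide loading rose, with a median of 1.97, and all 11 of MHC class II, with a median of 3.33. H2-K1, a class I heavy chain, read 311, 301 and 266 CPM in WT and 2559, 2863 and 2340 in ARE-/- (3.15 ± 0.13, adjusted p = 2.22e-06). Its light chain B2m went from 254, 289 and 209 to 1548, 2060 and 1430 CPM. The immunoproteasome subunit Psmb9 rose from 10.2, 9.86 and 9.01 to 107, 108 and 99.95 CPM, and Tap1, which carries peptides into the endoplasmic reticulum, from 28.7, 32.3 and 26.4 to 257, 274 and 241. Ciita, the coactivator that switches on class II genes, read 5.37, 7.38 and 6.78 CPM in WT and 75.5, 88.3 and 62.6 in ARE-/- ovaries (3.53 ± 0.18, adjusted p = 3.73e-06). In each of these 5 genes the groups were far apart, with the ARE+/- mean between them. The class II chain H2-Aa rose by 3.05 ± 0.24 and the invariant chain Cd74 by 3.35 ± 0.22. Summed over the class II list, WT libraries held 418, 665 and 543 CPM and ARE-/- libraries 5805, 5906 and 4004.

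**Figure D2:**
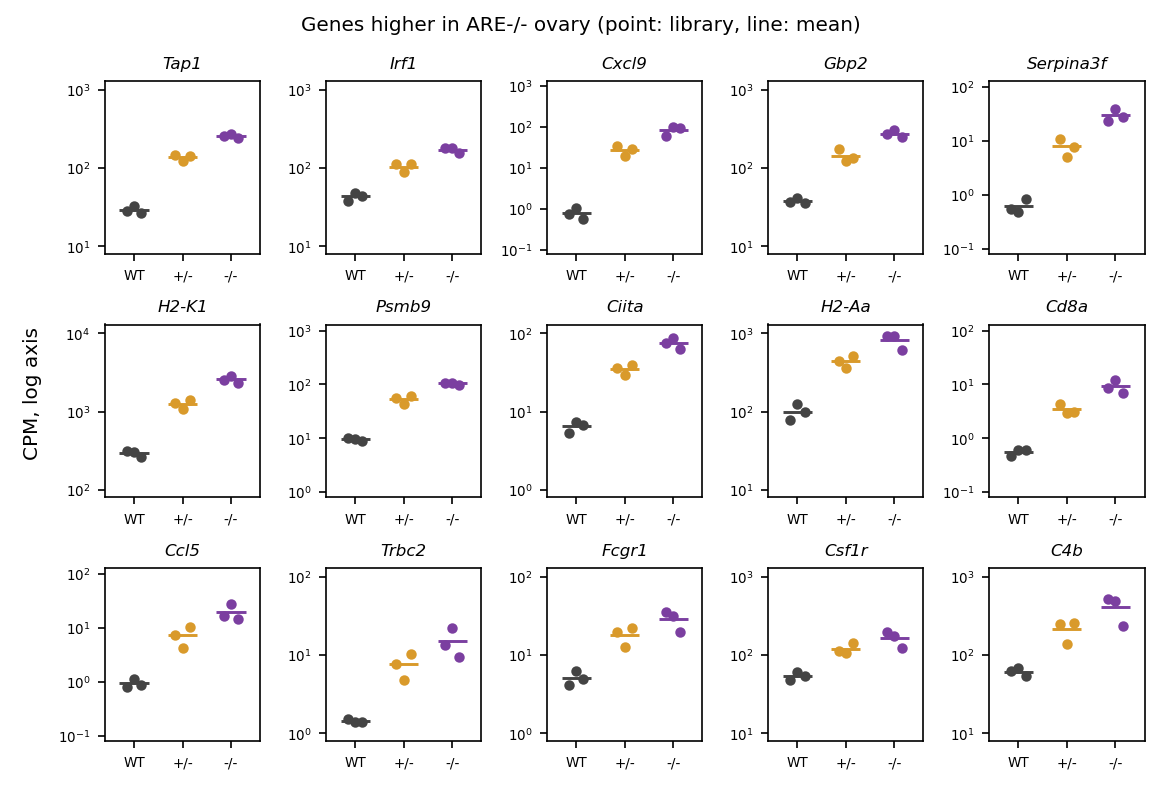
CPM (log axes) of 15 genes that rose in ARE-/- ovaries, with a point for each of 3 WT, 3 ARE+/- and 3 ARE-/- libraries and a line at each mean; the panels were picked after values were seen. In each panel the ARE-/- libraries lie above the WT libraries, for example at 59.7 to 101 against 0.552 to 1.07 CPM for Cxcl9.

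Genes of T cells and cytotoxic cells rose from very low WT levels. Of 17 tested CD8 and cytotoxic genes 14 rose, and all 17 had groups that did not overlap. Among all genes tested, 6.31% were called higher, and 16.1% had all 3 ARE-/- libraries above all 3 WT libraries. Cd8a, the CD8 co-receptor, read 0.46, 0.611 and 0.602 CPM in WT, 4.42, 3.01 and 3.13 in ARE+/- and 8.66, 12.3 and 6.89 in ARE-/- (4.05 ± 0.31, adjusted p = 6.21e-05). ARE-/- 3 was the highest for this gene and ARE-/- 6 the lowest of its group, still above all WT libraries. Ccl5, a chemokine of activated T cells, rose from 0.818, 1.15 and 0.878 to 16.5, 27.3 and 15 CPM (4.37 ± 0.38). Nkg7 and Ctsw, both of cytotoxic granules or cells, rose by 3.72 ± 0.34 and 2.9 ± 0.22, and Gzmb, granzyme B, by 3.03 ± 0.51 (adjusted p = 0.00675). Among 16 genes of the T cell receptor and its signaling 14 rose, among them Cd3e from 1.25, 0.789 and 0.502 to 5.92, 9.68 and 4.76 CPM and the receptor constant region Trbc2 from 1.51, 1.4 and 1.38 to 13.3, 22 and 9.57. In bulk tissue, more cells of a type and more RNA per cell cannot be told apart.

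Other lymphocyte lists were called less completely, and whether lists differ was not tested. Their counts stand beside 6.31% called higher over all genes tested. So do those of the B cell, macrophage, dendritic cell, neutrophil, complement, cell death, antiviral, chemokine and adhesion lists below. Of 10 CD4 and regulatory T cell genes 2 rose, Cd4 (1.99 to 2.65 against 6.4 to 14.8 CPM, 2 ± 0.37, adjusted p = 0.01) and Icos, a costimulator (1.93 ± 0.54, adjusted p = 0.0475). The call of Cd4 was lost without WT 1 (adjusted p = 0.0573). That of Icos was lost without WT 1, WT 2, WT 3, ARE+/- 2, ARE+/- 4, ARE-/- 2 and ARE-/- 3 (adjusted p = 0.0526 to 0.145). It was also lost with limma-voom, with the 6 compared libraries alone, against a minimum fold of 1.2 and with the length trend removed. The count was 0 without WT 1, 1 without WT 2, 1 without WT 3, 1 without ARE+/- 2, 1 without ARE+/- 4, 1 without ARE-/- 3 and 4 without ARE-/- 6. Of 12 natural killer genes 7 rose, among them Klrk1, the activating receptor NKG2D (2.39 ± 0.35, adjusted p = 0.00371). This count was 2 without WT 1, 3 without WT 2, 2 without WT 3, 4 without ARE-/- 2 and 2 without ARE-/- 3. Of 12 checkpoint genes 8 rose (5 without WT 1), among them Lgals9 (1.1 ± 0.11) and Cd274, the ligand PD-L1, which went from 5.57, 6.04 and 5.5 to 31.7, 40.6 and 26.8 CPM.

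B cell and plasma cell genes had a large median log2 difference, 2.71, but 1 of 18 was called, Cd79b, part of the B cell receptor. The libraries of 1 genotype differed widely: Ighm, the heavy chain of IgM, read 122, 617 and 28.6 CPM in ARE-/- and 9.59, 14.1 and 6.55 in WT ovaries (adjusted p = 0.0862). The ARE-/- libraries thus spanned a wide range for Ighm, with ARE-/- 6 the lowest. The call of Cd79b (3.29 ± 0.65) was lost without WT 1, WT 2 and WT 3 (adjusted p = 0.0659 to 0.0801), while 7 of the 18 were called without ARE-/- 6. Unadjusted, 14 of 18 had p under 0.05. DESeq2 called 13 and limma-voom 0. Antibody and T cell receptor segments made up 27 of all 1544 rises. Among the largest fitted rises were the light-chain segments Igkv4-55, at 21.1, 3.08 and 0.496 CPM in ARE-/- against 0.1 to 0.153 in WT, and Igkv15-103, at 28.7, 11.9 and 1.54 against 0.15 to 0.662. The call of the first was lost without WT 1, WT 2, WT 3, ARE+/- 1, ARE+/- 2, ARE+/- 4 and ARE-/- 3 (adjusted p = 0.0582 to 0.159), and that of the second without WT 1, WT 2, WT 3, ARE+/- 1, ARE+/- 2, ARE-/- 2 and ARE-/- 3 (adjusted p = 0.0562 to 0.159).

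Macrophage and monocyte genes rose in 16 of 20 cases, with a median of 1.79, though the count was 9 without WT 1 and 10 without WT 3. Csf1r, the receptor for the macrophage growth factor, read 47.4, 60.6 and 54.7 CPM in WT and 199, 176 and 124 in ARE-/- (1.62 ± 0.18, adjusted p = 0.00107). Fcgr1, the high-affinity receptor for antibody, went from 4.19, 6.26 and 4.94 to 36.1, 31.6 and 19.9 CPM (2.51 ± 0.28, adjusted p = 0.00121). In both, ARE-/- 6 was the lowest of the homozygous libraries and still above WT. Lyz2, an abundant lysozyme of these cells, was not called, at 182, 242 and 224 CPM in WT and 476, 541 and 208 in ARE-/- (adjusted p = 0.0981). Of 12 dendritic cell genes 4 rose and 8 were not called. The 4 were Ccl22, Xcr1 (4.05 ± 0.55), Clec9a (1.5 ± 0.23) and Ccr7, of which Xcr1 and Clec9a are of the cross-presenting type. The call of Ccr7 was lost without WT 1 (adjusted p = 0.0578). Of 7 tested neutrophil genes 1 rose, Csf3r (1.86 ± 0.27). The share of all genes tested that rose was 6.31%.

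Of 15 complement genes 11 rose. The rises numbered 5 without WT 1, 7 without WT 3 and 7 without ARE-/- 2. C4b rose from 62.6, 68.8 and 53.5 to 518, 486 and 237 CPM (2.75 ± 0.35, adjusted p = 0.0036), and C1qa, a chain of the first component, from 43.6, 60.1 and 52.8 to 342, 244 and 152 (2.24 ± 0.32).

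Cell death and inflammasome genes rose in 17 of 22 cases, with a median of 1.21 (8 without WT 1, 11 without WT 2, 11 without WT 3, 10 without ARE-/- 2 and 11 without ARE-/- 3). Zbp1, a sensor of nucleic acids that can start necroptosis, went from 3.6, 3.69 and 1.98 to 49.8, 65.4 and 38.2 CPM (4.05 ± 0.31, adjusted p = 0.000145). Casp1, the inflammasome protease, rose from 5.29, 5.96 and 4.59 to 30.3, 32.9 and 19.98 CPM (2.39 ± 0.25), and its substrate Gsdmd by 1.21 ± 0.13. Type I interferon and antiviral genes, many of which interferon gamma also raises, were higher in 19 of 24 cases, with a median of 1.36, for example Oas1a (1.83 ± 0.18) and Irf9 (0.99 ± 0.11). Of 14 other chemokines 6 rose (2 without WT 1, 3 without WT 2 and 2 without WT 3), among them Cxcl16 (1.29 ± 0.19, adjusted p = 0.00394). Of 11 endothelial adhesion genes 2 rose, Icam1 (1.65 ± 0.19) and Vcam1 (2.23 ± 0.43), the second call being lost without WT 1, WT 2 and WT 3 (adjusted p = 0.0715 to 0.0837).

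**Figure D3:**
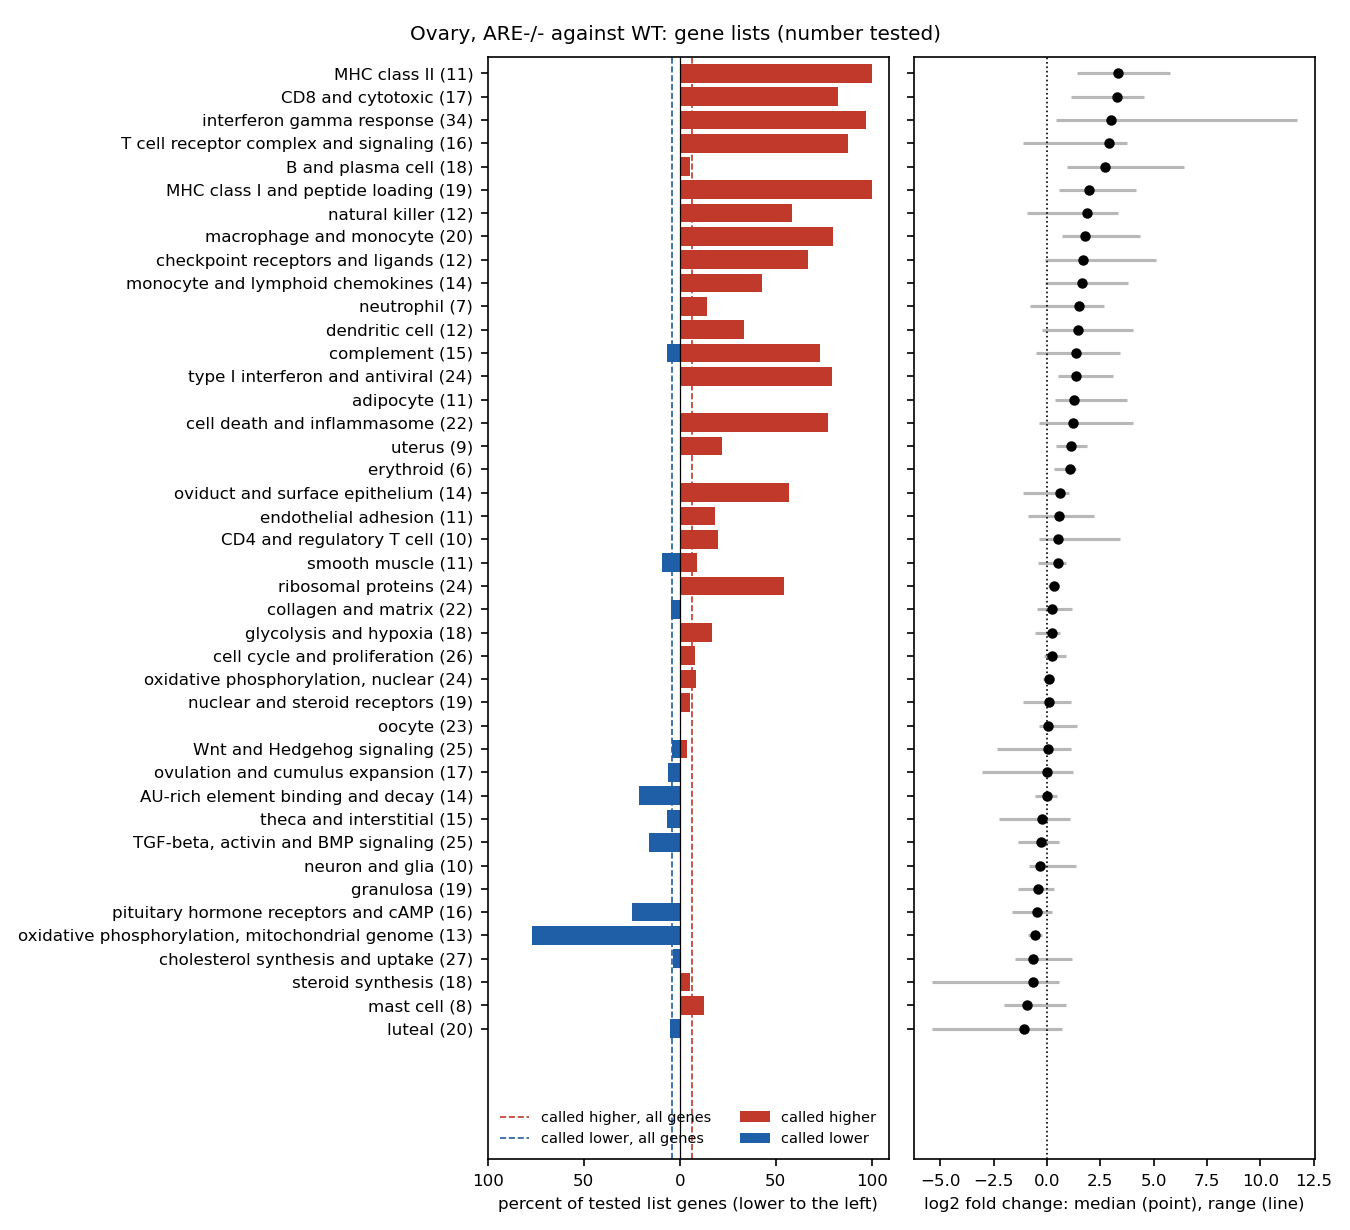
Gene lists in order of median log2 fold change, ARE-/- minus WT. Left, percent of tested genes called higher (right of 0) and lower (left of 0), with dashed lines at 6.31% and 4.15% for all genes. Right, median and range. The lists of antigen presentation, interferon response and cytotoxic cells stand at the top, and the mitochondrial-genome list has the highest share of falls.

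Against these rises, genes of steroid production and the corpus luteum showed large but uneven differences. Of 18 steroid synthesis genes none was called lower and 1 higher (Tspo, 0.58 ± 0.14), with a median of -0.66. Of 20 luteal genes 1 was called lower, Cited2, a transcriptional coregulator (-0.52 ± 0.14), with a median of -1.05. Over all genes tested 4.15% were called lower and 6.31% higher. Star, which delivers cholesterol to the inner mitochondrial membrane, read 606, 3256 and 397 CPM in WT and 144, 59.9 and 510.2 in ARE-/- ovaries (-2.58 ± 1.24, adjusted p = 0.243). The groups overlapped, with WT 2 far above the rest and ARE-/- 6 within the WT range. Akr1c18, the enzyme that inactivates progesterone at luteal regression, read 1125, 79.1 and 345 CPM in WT and 25.1, 0.254 and 11.9 in ARE-/- (-5.38 ± 2.28, adjusted p = 0.191). The groups did not overlap here, but each spanned more than 10-fold.

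In the summed level of the luteal list, ARE-/- 6 stood apart from the other 2 homozygous libraries. WT libraries held 19150, 18630 and 12470 CPM and ARE-/- libraries 5657, 4778 and 13180. Cyp11a1, the side-chain cleavage enzyme that starts steroid synthesis, read 5192, 5223 and 4369 CPM in WT and 1526, 932 and 4518 in ARE-/- ovaries (adjusted p = 0.32). Lhcgr, the receptor for luteinizing hormone, read 498, 649 and 372 and 160.2, 100.3 and 612 CPM (adjusted p = 0.518). In both, ARE-/- 2 and 3 lay below all WT libraries and ARE-/- 6 did not. Prlr, the prolactin receptor, was below WT in all 3 ARE-/- libraries, at 94.1, 59.2 and 278 against 491, 507 and 326 CPM (-1.62 ± 0.65, adjusted p = 0.167). Cyp17a1 of theca cells gave -2.23 ± 0.79 (adjusted p = 0.125). Without ARE-/- 6, 6 luteal and 3 steroid synthesis genes were called lower. The call of Cited2 was lost without WT 1, WT 2, ARE+/- 1, ARE-/- 2 and ARE-/- 3 (adjusted p = 0.0563 to 0.132), and that of Tspo without WT 1, WT 2, WT 3, ARE+/- 4, ARE-/- 2 and ARE-/- 3 (adjusted p = 0.0528 to 0.123). Unadjusted, 4 steroid synthesis and 6 luteal genes were lower at p under 0.05. DESeq2 called 3 and 4 lower and limma-voom 0 and 1.

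Cholesterol supply gave a similar picture, with 1 of 27 genes lower and a median of -0.65, beside 4.15% lower over all genes tested. Unadjusted, 7 of the list were lower and 2 higher at p under 0.05 in the edgeR test. DESeq2 called 5 lower and 1 higher, and limma-voom called 1 lower and 0 higher. Stard4, a carrier of cholesterol within the cell, read 49.99, 51.2 and 31.2 CPM in WT and 18.8, 23.6 and 27.6 in ARE-/- (-0.92 ± 0.21, adjusted p = 0.0263), a call lost without WT 1, WT 2, ARE-/- 2 and ARE-/- 3 (adjusted p = 0.0698 to 0.0979). Without WT 3 there were 3 called falls on this list, and without ARE-/- 6 there were 6, beside 2 rises. Scarb1, which takes up cholesterol from high-density lipoprotein, read 1006, 1588 and 677 and 343, 146 and 957 CPM, with ARE-/- 6 inside the WT range.

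Follicle and germ cell genes gave almost no calls, beside 4.15% called lower and 6.31% called higher over all genes tested. None of 19 granulosa genes was called (median -0.41), with 2 lower at an unadjusted p under 0.05, 1 called by DESeq2 and 0 by limma-voom. Without ARE-/- 3, 1 of them was lower, and without ARE-/- 6, 4. None of 23 tested oocyte genes was called (median 0.06), with 0 at an unadjusted p under 0.05 and 0 by DESeq2 or limma-voom, though 1 was lower without ARE-/- 6. Amh, a hormone of growing follicles, read 124, 145 and 163 CPM in WT and 166, 114 and 238 in ARE-/-. The oocyte factor Gdf9 read 34.5, 37.8 and 33 and 32.9, 20.6 and 65.3 CPM, with ARE-/- libraries on both sides of WT. Of 15 theca and interstitial genes 1 fell, Ptch1, the Hedgehog receptor (-0.47 ± 0.12, adjusted p = 0.0323), lost without WT 1, WT 2, WT 3, ARE-/- 2 and ARE-/- 3 (adjusted p = 0.0612 to 0.0963). Without ARE-/- 6, 3 theca genes were called. Of 17 ovulation genes 1 fell, Nrip1, a corepressor needed for ovulation (-0.64 ± 0.18, adjusted p = 0.0483), lost without WT 1, WT 3, ARE+/- 1, ARE+/- 2, ARE+/- 4, ARE-/- 2, ARE-/- 3 and ARE-/- 6 (adjusted p = 0.0557 to 0.156), and 2 were called without WT 2.

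Several receptors and signal carriers fell, each by under 2-fold. The counts of the 2 lists here stand beside 4.15% called lower over all genes tested, and whether the lists differ from it was not tested. Of 16 genes of pituitary hormone receptors and cAMP 4 fell: the adenylyl cyclase Adcy9, the phosphodiesterase Pde10a, and the receptors Igf1r and Insr for insulin-like growth factor and insulin. The count was 1 without WT 1 and 1 without ARE-/- 2. Adcy9 read 70.8, 63 and 52.6 CPM in WT and 27.9, 38.1 and 32.6 in ARE-/- (-0.92 ± 0.18, adjusted p = 0.0148). Igf1r read 223, 187 and 177 and 122, 118 and 156 CPM (-0.57 ± 0.15, adjusted p = 0.0366). Of 25 genes of TGF-beta, activin and BMP signaling 4 fell: the receptors Bmpr2, Bmpr1a and Acvr1 and the signal carrier Smad2. This count was 0 without WT 1 and 2 without WT 2, and 1 gene of the list rose without ARE-/- 6. Bmpr2, the type II receptor for BMPs, read 336, 321 and 242 CPM in WT, 262, 188 and 184 in ARE+/- and 169, 142 and 183 in ARE-/- ovaries (-0.86 ± 0.17, adjusted p = 0.0138), with no overlap of ARE-/- and WT. Its call was lost without WT 1 (adjusted p = 0.0606), that of Adcy9 without WT 1 and ARE-/- 2 (adjusted p = 0.0521 to 0.0631) and that of Igf1r without WT 1, WT 2, WT 3, ARE-/- 2 and ARE-/- 3 (adjusted p = 0.0602 to 0.133). Acvr1 was lost without WT 1 and WT 2 (adjusted p = 0.0511 to 0.0525), Bmpr1a without WT 1 and WT 2 (adjusted p = 0.0578 to 0.082), Smad2 without WT 1, WT 2, WT 3, ARE+/- 1, ARE-/- 2 and ARE-/- 3 (adjusted p = 0.0522 to 0.116) and Insr without WT 1, WT 2, ARE+/- 1, ARE+/- 2, ARE-/- 2 and ARE-/- 6 (adjusted p = 0.051 to 0.122). Of the 8 genes, Adcy9 and Acvr1 alone were still called after each library's trend on annotated exonic length was removed.

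Of 14 genes that bind or decay AU-rich transcripts 3 fell (0 without WT 1 and 1 without ARE-/- 2), beside 4.15% lower over all genes tested. They were Rc3h1 and Rc3h2, which encode the Roquin proteins that destabilise immune transcripts, and Tia1, a translational silencer. Rc3h2 read 66, 63.9 and 55.6 CPM in WT and 45.8, 45.2 and 40.8 in ARE-/- (-0.49 ± 0.10, adjusted p = 0.0117), and Tia1 read 109, 105 and 104 and 67.4, 63.7 and 87.8 (-0.54 ± 0.12). In Tia1, ARE-/- 6 lay above the other homozygous libraries. Their calls were lost without WT 1 (adjusted p = 0.054) for Rc3h2 and WT 1, WT 3 and ARE-/- 2 (adjusted p = 0.0562 to 0.0775) for Tia1. The list's median was -0.01, near that of all genes, and 1 of the 3, Tia1, was called with the length trend removed.

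Of the 10 falls with the smallest adjusted p, 8 were under 2-fold. Smc5, whose window is printed above, read 61.6, 58.4 and 60.7 CPM in WT, 47.8, 44.3 and 44.4 in ARE+/- and 37.2, 36.2 and 34.7 in ARE-/- ovaries (-0.74 ± 0.08, adjusted p = 0.000608). The 3 genotypes did not overlap. Impad1, a Golgi phosphatase, fell from 159, 154 and 148 to 94.3, 91.6 and 98 CPM (-0.70 ± 0.07, adjusted p = 0.000665), and Luc7l2, a splicing factor, from 305, 312 and 275 to 187, 181 and 177 (-0.71 ± 0.09). Lats1, a kinase of the Hippo pathway, fell from 87.6, 89 and 90.2 to 61.5, 59.1 and 56.5 CPM (-0.59 ± 0.08, adjusted p = 0.00198). Ireb2, an RNA-binding regulator of iron metabolism, fell by 0.614 on the log2 scale. The remaining genes of the 10 were Mtx3, Zbtb41, Casc4 and the larger falls Robo1 and Grin2c. Robo1, a receptor for Slit ligands, read 76.7, 76 and 59.8 CPM in WT and 30.5, 26.4 and 35.1 in ARE-/- (-1.21 ± 0.15). Grin2c, a glutamate receptor subunit, read 20.9, 17.3 and 17.1 CPM in WT and 5.37, 7.57 and 5.75 in ARE-/-, and 6.17, 5.89 and 7.47 in ARE+/-, at values that overlapped the homozygotes. The calls of all 10 were kept in each alternative run. The abundant nuclear RNA Malat1, chosen after its values were seen, also fell, from 1266, 913 and 835 to 388, 394 and 463 CPM (-1.28 ± 0.18, adjusted p = 0.00298).

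**Figure D4:**
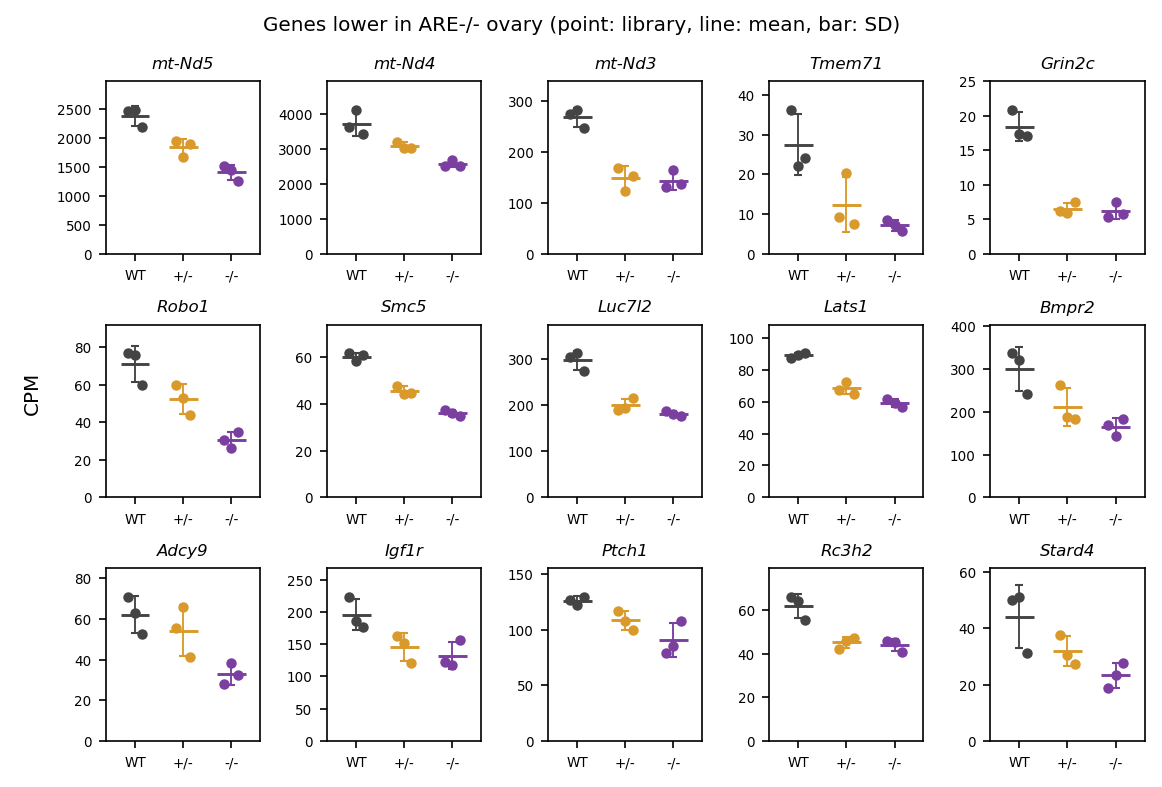
CPM (axes from 0) of 15 genes that fell in ARE-/- ovaries, with a point per library, a line at the mean and a bar of 1 SD for 3 WT, 3 ARE+/- and 3 ARE-/- libraries; the panels were picked after values were seen. In each panel the ARE-/- points lie below the WT points, for example at 34.7 to 37.2 against 58.4 to 61.6 CPM for Smc5, and the ARE+/- points mostly lie between.

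The largest falls were mostly of weakly expressed genes. Rmrp, the RNA of the RNase MRP complex, read 4.55, 0.815 and 2.26 CPM in WT and 0.15, 0.203 and 0.0992 in ARE-/- (-4.05 ± 0.79, adjusted p = 0.0122), a call lost without WT 1 and ARE-/- 2 (adjusted p = 0.0513 to 0.0578). Cd209f, a lectin, fell from 3.73, 2.65 and 3.11 to 0.979, 0.33 and 0.0992 CPM, lost without WT 1, WT 3 and ARE-/- 3 (adjusted p = 0.0609 to 0.0801), and the potassium channel Kcna4 from 2.23, 2.09 and 1.15 to 0.401, 0.254 and 0.248, lost without WT 1, WT 2, ARE-/- 2 and ARE-/- 3 (adjusted p = 0.0576 to 0.0987). Tmem71, a membrane protein, was more abundant than these, at 36.3, 22 and 24.2 CPM in WT and 8.43, 7.27 and 5.78 in ARE-/- (-1.94 ± 0.38, adjusted p = 0.0151), lost without WT 1 and ARE-/- 3 (adjusted p = 0.057 to 0.058). The others among the 10 largest falls under the same rule were Nxf3, related to RNA export factors, and the predicted or little described loci Gm6093, Gm21973, Gm37570, Gm45619 and 4930500M09Rik. The call of Gm45619 alone among these 6 held with each library left out. Nxf3 was lost without WT 1, WT 3, ARE-/- 2 and ARE-/- 3 (adjusted p = 0.0783 to 0.12), Gm21973 without WT 1, ARE-/- 2 and ARE-/- 3 (adjusted p = 0.0643 to 0.0701) and Gm37570 without WT 1, WT 3 and ARE-/- 2 (adjusted p = 0.0751 to 0.0821). Gm6093 was lost without WT 1, WT 2, WT 3, ARE+/- 1, ARE+/- 4, ARE-/- 2 and ARE-/- 6 (adjusted p = 0.0641 to 0.133), and 4930500M09Rik without WT 1, WT 3, ARE-/- 2, ARE-/- 3 and ARE-/- 6 (adjusted p = 0.0601 to 0.136).

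The most abundant falls were transcripts of the mitochondrial genome. Of its 35 tested genes 15 fell (42.9%) and none rose, against 4.15% lower over all genes. Of the 13 protein-coding genes 10 fell, with a median of -0.58. The count was 6 without WT 1 and 5 against a minimum fold of 1.2. The complex I subunit mt-Nd5 read 2459, 2481 and 2186 CPM in WT, 1937, 1667 and 1899 in ARE+/- and 1513, 1440 and 1258 in ARE-/- ovaries (-0.76 ± 0.10, adjusted p = 0.0028). Cytochrome b, mt-Cytb, went from 3565, 3700 and 3367 to 2551, 2662 and 2411 CPM (-0.48 ± 0.08), and mt-Nd3 from 275, 282 and 247 to 130.5, 164 and 136 (-0.90 ± 0.13). These groups did not overlap. The ATPase subunit mt-Atp6 fell by 0.592 on the log2 scale and lost its call without WT 1 (adjusted p = 0.0548). The 3 subunits of cytochrome c oxidase were the ones not called.

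The share of counts on the mitochondrial chromosome was 3.87% to 4.53% in WT and 2.79% to 3.35% in ARE-/- ovaries. Gm10925, a nuclear copy among the most abundant falls, read 2869, 3565 and 3068 CPM in ARE-/- ovaries against 2873, 3568 and 3068 for mt-Atp6. Reads that map to several places were counted at each, so such pairs are not separate measurements. Of 24 nuclear genes of oxidative phosphorylation none fell and 2 rose, Atp5o (0.33 ± 0.08) and Cox4i1 (0.34 ± 0.09). Over all genes tested 6.31% rose. The call of Atp5o was lost without WT 1, WT 2, WT 3, ARE+/- 1, ARE+/- 4, ARE-/- 2, ARE-/- 3 and ARE-/- 6 (adjusted p = 0.0519 to 0.116), and that of Cox4i1 without WT 1, WT 2, WT 3, ARE+/- 1, ARE+/- 2, ARE+/- 4, ARE-/- 2 and ARE-/- 3 (adjusted p = 0.055 to 0.133). The cause of the mitochondrial falls was not tested.

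Translation genes moved the other way. Of 24 ribosomal protein genes 13 rose and none fell, with a median of 0.34, but the count was 1 without WT 1, 5 without WT 2, 8 without WT 3 and 5 without ARE-/- 2. It was 1 against a minimum fold of 1.2 and 8 with the trend on exonic length removed. Rpl3 rose from 724, 749 and 783 to 1021, 1027 and 1002 CPM (0.43 ± 0.08, adjusted p = 0.00754), and the call was lost without WT 1 (adjusted p = 0.055). Among the 5 most abundant rises were the elongation factors Eef1a1 and Eef2 and the chaperones Hspa8 and Hsp90ab1. Hspa8 read 1426, 1391 and 1540 CPM in WT and 1890, 2463 and 2680 in ARE-/- (0.69 ± 0.13, adjusted p = 0.0102), lost without WT 1 (adjusted p = 0.0573). Eef1a1 rose by 0.34 ± 0.08, lost without WT 1, WT 3, ARE+/- 4, ARE-/- 2 and ARE-/- 3 (adjusted p = 0.0543 to 0.109). Eef2 was lost without WT 1, WT 3 and ARE-/- 3 (adjusted p = 0.0565 to 0.103) and Hsp90ab1 without WT 1, WT 2, WT 3 and ARE-/- 3 (adjusted p = 0.0524 to 0.0821).

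Falls and rises differed in exonic length, the exon bases annotated for a gene, which need not be the length of the transcript expressed. The median exonic length in the deposited annotation was 5895 bases for the genes that fell, 2368 for those that rose and 2482 for all tested. Among protein-coding genes alone it was 6420, 2521 and 3156 bases. Genes over 5000 bases made up 61.4% of the falls, 8.9% of the rises and 16.8% of all genes. Within protein-coding genes of at least 1 CPM outside the mitochondrial genome, 24.2% of the 1063 over 8000 bases fell and 1.79% rose. Of the 2851 between 1000 and 2000 bases, 0.456% fell and 12% rose. The median log2 fold change went from 0.15 in that bin to -0.25 in the longest. The mitochondrial transcripts do not follow this pattern, since mt-Nd5 has 1824 and mt-Nd3 348 bases.

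The same slope was present in each homozygous library. Over genes longer than 8000 bases the median log2 difference from the WT mean was -0.28 in ARE-/- 2, -0.19 in ARE-/- 3 and -0.35 in ARE-/- 6. ARE+/- libraries lay at -0.12, -0.11 and -0.20. Each WT library against the other 2 gave 0.09, -0.05 and -0.04, so the ARE-/- values were beyond the spread of WT. In the uterus the median of ARE-/- minus WT was -0.17 over genes longer than 8000 bases and 0.32 over genes of 500 to 1000 bases. The ovary medians of these bins were -0.25 and 0.16. A fall with length was thus present in the uterus as well. With each library's trend on length removed, an alternative added after the data were seen, 569 genes fell, 488 of them among the 1014, and 1260 rose. All but 3 of the 1014 kept their sign. The lower level of genes with a large annotated exonic length thus moved with genotype, and its cause was not tested.

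**Figure D5:**
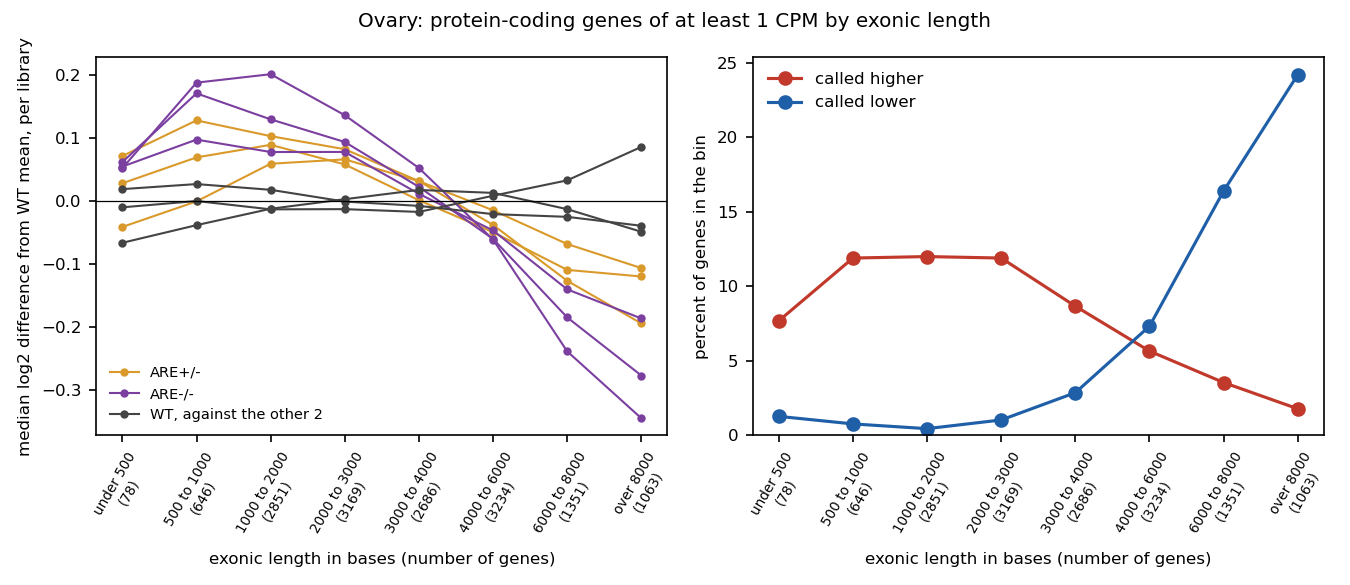
Protein-coding genes of at least 1 CPM by exonic length (bins, number of genes in parentheses). Left, median log2 difference of each library from the WT mean, or for a WT library from the other 2: ARE-/- lines end between -0.19 and -0.35 in the longest bin and WT lines between -0.05 and 0.09. Right, percent called: falls climb to 24.2% and rises drop to 1.79%.

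Markers of cells beside the ovary proper also moved. Of 14 genes of oviduct and surface epithelium 8 rose, with a median of 0.60 (4 without WT 1, 5 without WT 3, 5 without ARE-/- 2 and 5 without ARE-/- 3). Ovgp1, the oviductal glycoprotein, read 1318, 1846 and 1918 CPM in WT, 2528, 3087 and 2440 in ARE+/- and 2939, 3374 and 2928 in ARE-/- (0.86 ± 0.15, adjusted p = 0.00802). Foxj1, the factor of ciliated cells, read 79.3, 73.3 and 82.5 and 108, 121 and 124 CPM (0.59 ± 0.09). The summed level of the list was 2021 to 2651 CPM in WT and 3845 to 4636 in ARE-/- libraries, and no WT library reached the ARE-/- range. The part of these cells in the other rises was not tested. Of 9 tested uterus markers 2 rose, Ltf, a secreted iron-binding protein (1.49 ± 0.28, adjusted p = 0.0146), and Emx2, a transcription factor (0.50 ± 0.10). The count was 1 without WT 1, 1 without WT 2, 1 without ARE-/- 2, 1 without ARE-/- 3 and 6 without ARE-/- 6. The median log2 fold change of the uterus list was 1.14 and its lowest 0.44. Unadjusted, 8 of the 9 were higher at p under 0.05 in the edgeR test. DESeq2 called 6 of them higher and limma-voom 2. The call of Ltf was lost without ARE-/- 3 (adjusted p = 0.0502), and that of Emx2 without WT 1, WT 2 and ARE-/- 2 (adjusted p = 0.0576 to 0.0741). The summed level of this list was 169 to 305 CPM in WT and 589.8 to 653 in ARE-/- ovaries.

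Fat markers split the homozygous libraries. None of 11 tested adipocyte genes was called, with 4 higher at an unadjusted p under 0.05, 4 called by DESeq2 and 0 by limma-voom. Their summed level was 389, 399 and 304 CPM in WT and 1887, 2655 and 238 in ARE-/- libraries, so that ARE-/- 6 was below WT and ARE-/- 2 and 3 far above. Without ARE-/- 6, 3 were called. None of 6 erythroid genes was called, with 1 at an unadjusted p under 0.05, 1 by DESeq2 and 0 by limma-voom, and 1 was called without ARE+/- 1 or ARE+/- 2. Of 8 tested mast cell genes Gata2, also a factor of other cells, rose (0.89 ± 0.11, adjusted p = 0.00164), while the list's median was -0.92. A second gene rose without ARE+/- 4, and 1 fell without ARE+/- 2.

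The remaining lists gave few calls, to be read against 6.31% called higher and 4.15% called lower over all genes tested. Whether any of these lists differs from those shares was not tested. Of 26 cell cycle genes 2 rose, the cyclins Ccnd1 (0.91 ± 0.14) and Ccnd3 (0.68 ± 0.15), with the second call lost without WT 1, WT 2 and WT 3 (adjusted p = 0.0523 to 0.0955). Of 18 glycolysis and hypoxia genes 3 rose, Gpi1, Pfkl and Hk1, each by under 1.5-fold. The count was 0 without WT 1, 1 without WT 2, 1 without ARE-/- 2, 1 without ARE-/- 3 and 5 without ARE-/- 6, and 1 gene fell without ARE-/- 3. Of 25 Wnt and Hedgehog genes Rspo1, an enhancer of Wnt signals, rose (1.15 ± 0.16, adjusted p = 0.00288) and Ptch1 fell. The fall was lost without WT 1, WT 2, WT 3, ARE-/- 2 and ARE-/- 3 (adjusted p = 0.0612 to 0.0963), and 2 genes rose without ARE-/- 6. Of 19 nuclear receptors Nr1h3, the liver X receptor alpha, rose (1.14 ± 0.31, adjusted p = 0.0445), a call lost with each library left out except ARE-/- 6, without which 4 rose and 2 fell; 1 fell without ARE-/- 3. Of 22 collagen and matrix genes Lama1, a laminin chain, fell (-0.47 ± 0.12), lost without WT 1, WT 2, WT 3, ARE-/- 2 and ARE-/- 3 (adjusted p = 0.0556 to 0.113), and 1 gene rose without ARE-/- 6. Of 11 smooth muscle genes Lmod1 rose, lost without WT 1, WT 2, WT 3, ARE+/- 2, ARE-/- 2 and ARE-/- 3 (adjusted p = 0.0544 to 0.139), and Synm fell, lost without WT 1, WT 2, ARE+/- 1, ARE-/- 2, ARE-/- 3 and ARE-/- 6 (adjusted p = 0.068 to 0.151). Without ARE-/- 6, 3 smooth muscle genes rose. None of 10 neuron and glia genes was called, with 2 at an unadjusted p under 0.05, 2 called by DESeq2 and 0 by limma-voom. In that list, 1 gene rose without ARE-/- 6 and 1 fell without ARE+/- 4.

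The change in the ovary was set beside the same contrast in the uterus. The labels do not say whether both tissues came from the same mice. In the uterus 3.36% of 24277 genes rose and 0.391% fell. Of the 1540 ovary rises also tested there, 452 were called higher (29.4% of the ovary rises and 55.4% of the uterus rises). Over all 1540 the median log2 fold change in the uterus was 0.86. Of 993 ovary falls, 7 were called lower in the uterus (0.705% of them, and 7.37% of the 95 uterus falls). Over all 993 the median there was -0.31. A direct test of the difference between tissues called 45 of 26682 genes (0.169%), among them 12 of the ovary rises and 8 of the ovary falls. DESeq2 called 789. The edgeR count was 3 without ovary WT 1 or ovary ARE-/- 2, 7 without uterus WT 3 and 8 without ovary WT 2. It was 17 to 25 without ovary WT 3, ARE+/- 1, ARE+/- 2, ARE-/- 3 or ARE-/- 6 or uterus WT 1 or ARE+/- 2. It was 236 without uterus ARE-/- 1, 377 without uterus WT 2 and 369 without uterus ARE-/- 2. The interferon gamma list had 31 called rises in the uterus and no gene whose change differed between tissues by that test. The 13 mitochondrial genes had a median of 0.15 in the uterus with none called lower, and none differed by that test.

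In the authors' deposited table, a likelihood-ratio test over the 3 ovary genotypes, 719 genes had an adjusted p under 1e-04. Of these, 571 were rises and 148 were falls here, and none was uncalled. Its 2 main clusters held 569 of the rises and 147 of the falls, with median log2 fold changes here of 1.98 and -0.69. The table was made from the same libraries and is not independent.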

How the data were processed

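RNA was sequenced from 9 ovary and 9 uterus libraries. The authors' deposited tables hold raw counts per gene, made with featureCounts 2.0.4 on GENCODE M32 without a strand option, with mates counted singly and multi-mapping and overlapping reads counted at each feature, per the file headers. The submitters' processing notes name STAR, DESeq2 and mm10. M32 belongs to a later build than mm10, so the sources differ. Near-identical, overlapping and antisense genes are therefore uncertain. The authors also deposited adjusted p-values of a likelihood-ratio test and a cluster number (a group label) per gene. Of 57010 gene identifiers 91.3% had a symbol, covering 98.7% of ovary counts.

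Counts as deposited were tested with edgeR 4.0.16 (R 4.3.3; filterByExpr, TMM, robust quasi-likelihood fit over 9 ovary libraries, Benjamini-Hochberg over all genes). The fit was tested on simulated data. The tissue comparison used an interaction term over all 18 libraries. Alternatives used other scalings, filters and library sets, DESeq2 1.42.0, limma-voom 3.58.1, counts divided by 2, a minimum fold, a replicate block, a removed length trend (added after the data were seen) and each library left out.

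The comparison and the 42 gene lists were chosen with earlier results of these data known. Named genes are Ifng, a fixed panel, the 10 largest rises and falls by fold, the 5 most abundant rises and 10 most abundant falls, the 10 falls of smallest adjusted p (each with a mean of at least 1 CPM), and, per list, up to 4 called members or, with fewer than 2, the most abundant member. Malat1 and Neat1 were added after their values were seen. Promoter windows came from RefSeq (GRCm38.p6) and matched 1033 of 1544 rises and 701 of 1014 falls by symbol. Some genes that the rule names are not reported here.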

Additional observations from a re-analysis of the deposited data

Results flagged for a closer look

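The genotype effect (ARE-/- minus WT) differed between ovary and uterus, by the interaction test of edgeR over 18 libraries with Benjamini-Hochberg adjustment, for 5 named genes. Nkg7, of cytotoxic granules, rose more in the ovary, by 2.36 ± 0.40 on the log2 scale (adjusted p = 0.0291), and so did Ctsw, a protease of cytotoxic cells, by 1.84 ± 0.34 (adjusted p = 0.0474). Gata2, a transcription factor, had a difference of 1.67 ± 0.29 (adjusted p = 0.0364). Tmem71 had a difference of -3.14 ± 0.51 (adjusted p = 0.0271), and the nuclear noncoding RNA Neat1, chosen after its values were seen, one of -1.59 ± 0.27 (adjusted p = 0.0291). None kept its call with every library left out: the call was lost in 7 of 18 such fits for Nkg7, Neat1 and Tmem71, in 10 for Gata2 and in 15 for Ctsw.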

How the results depend on the processing

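All 1544 rises and 1014 falls kept their sign in every other scaling and with every library left out, but the number of calls did not hold. Rises numbered 804 against a minimum fold of 1.2. Falls numbered 1668 with the DESeq2 Wald test, 602 with the 6 compared libraries alone and 251 against the minimum fold. They numbered 346 with a replicate block and 569 with the length trend removed. Replicate numbers 4 and 6 each belong to 1 ovary library, ARE+/- 4 and ARE-/- 6, which the block therefore fits by itself. The block run thus leaves ARE-/- 2 and 3 to carry the contrast, and is not only an adjustment for replicate number. Falls under 2-fold were 504 with the 6 libraries alone, 179 against the minimum fold, 195 with the block and 446 with the length trend removed, from 866. With each library left out, rises ranged from 518 to 2031, falls from 267 to 1231, falls under 2-fold from 242 to 985 and genes differing between tissues from 3 to 377. That last count was 789 with DESeq2. Replicate numbers shared by WT and ARE-/- (2 and 3) carried correlations of their deviations of -0.189 and -0.03. Such correlations, of few libraries and of deviations centered within each genotype, do not show pairing and cannot exclude it. Of the 1014 falls 170 were kept under the replicate block. Under that block 2 of 13 mitochondrial-genome genes fell (from 10), 0 of 24 ribosomal protein genes rose (from 13) and 2 natural killer genes rose (from 7); mt-Nd5 (adjusted p = 0.0516), mt-Cytb (0.138) and mt-Atp6 (0.162) lost their calls. Against a minimum fold of 1.2, 11 cell death genes, 5 oviduct genes and 0 glycolysis genes rose (from 17, 8 and 3). Falls under that setting were 2 on the list of pituitary hormone receptors and cAMP, 1 on the TGF-beta list and 0 on the AU-rich binding list (from 4, 4 and 3). The 4 were Pde10a, Adcy9, Igf1r and Insr, none of them a receptor for a pituitary hormone. Of 198 named genes 157 were called, 82 of them in every alternative, and 8 uncalled ones changed sign. With the block, Amh gave -0.0101, Gdf9 -0.31 and Zp3 -0.27. With each library left out, Amh ranged from -0.0568 to 0.47, Gdf9 from -0.41 to 0.46, Zp3 from -0.42 to 0.40, Mki67 from -0.11 to 0.24, Rgs2 from -0.11 to 0.27, Kit from -0.43 to 0.70, Mmp9 from -0.27 to 0.50 and Nr5a1 from -0.37 to 0.0546. The cause of these shifts was not tested. Genes with few counts in WT, such as Ifng, Ubd and Cyp1a1, have fitted fold changes that are limited by depth and depend on the prior count.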
